A study of Mus musculus with 10 samples.

Results

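The genes described here are 10 genes of the desmosome and of intercalated disc adhesion: *Dsc2*, *Dsg2*, *Dsp*, *Jup*, *Pkp2*, *Pkp4*, *Cdh2*, *Ctnna1*, *Ctnna3* and *Tjp1*. They were taken by symbol from a table of 23195 genes, 16973 of them protein coding, and all 10 averaged 10 normalized counts or more. The members were chosen by symbol with the group means of both genotypes, and the ratio between them, in view, so that the values that compare null with wild-type hearts are a description of the members and carry no test. The table comes from stranded polyA RNA-seq of whole hearts at E13.5, with 5 male wild-type hearts and 5 male *Nos1ap* null hearts on a C57BL/6J background. Null embryos were homozygous for the tm1d allele of *Nos1ap*, the gene of a nitric oxide synthase 1 adaptor protein. In this allele exon 4 is deleted in the germ line, after a cross to mice with Cre driven by a CMV promoter, and neither the *lacZ* nor the *neo* cassette remains. The targeted ES cells were of C57BL/6N origin, and the loss was present in every cell type of the embryo, not in cardiomyocytes alone.

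Cardiomyocytes are joined end to end at the intercalated disc, where desmosomes tie intermediate filaments, and adherens junctions tie actin, to the membranes of neighbouring cells. The adhesion molecules of both junctions are cadherins, whose cytoplasmic tails bind armadillo proteins (plakoglobin, plakophilins and β-catenin), which in turn bind desmoplakin or the α-catenins. Inherited variants of several desmosomal genes are a known cause of arrhythmogenic cardiomyopathy.

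The table gives, for each gene, the mean over the 5 libraries of a group of the read count divided by the library's size factor (normalized count). Because these means are printed to 15 digits, the whole read counts of the single libraries could be worked out for some genes. Among members this succeeded in both groups for *Dsc2*, *Dsg2* and *Ctnna3*, and in the null group alone for *Pkp4*. For *Dsp*, *Jup*, *Pkp2*, *Cdh2*, *Ctnna1* and *Tjp1* only the group means are known, and these have no error. Where several sets of counts were possible, the most even one was used, which favours libraries that are alike, so that the SDs of members may be too small. Libraries are numbered within a group by descending size factor, which is unrelated to the numbering in the labels.

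Each library held an estimated 11328233 to 14023004 read pairs on genes. Wild-type library 3 and null library 2 stood apart. All 4 wild-type pairs with library 3 had a chi-square per gene of 3.56 to 4.41, against 1.58 to 2.99 for the other wild-type pairs, and all 4 null pairs with library 2 had 2.73 to 3.34, against 1.37 to 1.66 for the others. No pair of libraries was as alike as sampling noise allows. *Nos1ap* itself was between 126 and 161 normalized counts in the wild-type libraries and between 31.1 and 44.4 in the null libraries, so that the counts follow the genotype labels. All 13 cardiomyocyte markers were above 10 normalized counts, and their summed level in null was 102% of wild type, with 8 of 13 higher. The summed level of 8 endothelial markers was 103% of wild type, with 4 of 8 higher. For 8 epicardial markers it was 105%, with 6 of 8 higher, and the 6 with library counts summed to between 3139 and 3457 in wild-type and between 3417 and 3663 in null libraries. The sum of 8 fibroblast markers was 97.6% (4 of 8 higher). The sum of 6 smooth muscle markers was 96.2% (0 of 6 higher), most of it *Acta2*, while *Myh11* had means of 84.0 and 44.1 and *Rgs5* 697 and 496. Of these 6 only *Myh11* had library counts, and its ranges overlapped (32.9 to 205.6 in wild-type and 28.3 to 64.8 in null libraries). The sum of 9 epithelial markers was 95.1% (1 of 9 higher), most of it *Krt8* and *Krt18*, and 6 of the 9 were under 10 normalized counts, *Epcam*, for example, with 6.15 and 3.44. The 8 erythroid markers summed to 138% (7 of 8 higher). Neuronal and glial markers summed to 24.1% (0 of 8 higher). The 5 of these 8 with library counts ranged from 149 to 1083 across wild-type and from 119 to 184 across null libraries. The part of these cell types in the members' values was not tested. In whole hearts, fewer cells of a type and less RNA per cell cannot be told apart.

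The desmosomal cadherins were the members that differed most between genotypes. *Dsc2* (desmocollin 2, ENSMUSG00000024331, chromosome 18, 20030633 to 20059554, minus strand, GRCm38) encodes one of the paired adhesion molecules of the cardiac desmosome. Its normalized counts in the 5 wild-type libraries were 652, 629, 558, 627 and 579 (609 ± 39.2, SD, n = 5). In the null libraries they were 754, 751, 713, 685 and 709 (722 ± 29.6, SD, n = 5). All null libraries were above all wild-type libraries, with a gap of 32.7 normalized counts between the highest wild-type and the lowest null library. The fitted log2 difference was 0.25 (SE 0.05), on the scale of log2 of the normalized count plus 1.

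*Dsg2* (desmoglein 2, ENSMUSG00000044393, chromosome 18, 20558074 to 20604521, plus strand) encodes the other cadherin of the cardiac desmosome, and lies in the same cluster of desmosomal cadherin genes as *Dsc2*. Wild-type libraries had 1008, 991, 910, 1012 and 948 normalized counts (974 ± 44.0, SD, n = 5). Null libraries had 1088, 1073, 1144, 1103 and 1121 (1106 ± 27.9, SD, n = 5). The groups did not overlap here either, the lowest null library being 60.5 normalized counts above the highest wild-type library. The fitted log2 difference was 0.18 (SE 0.03). Its null mean is above 1000, where library counts could be settled for fewer genes (23.6% of null means, against 98.5% below 1000).

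Of the 10566 protein-coding genes with library counts, 0.473% had null libraries all above the wild-type libraries, and 0.36% had them all below. The rule that chose the members used this contrast, and nothing is read from the 2 members among these genes. Wild-type library 3 had the lowest count of both *Dsc2* and *Dsg2*. Without wild-type library 3 and null library 2, the log2 difference was 0.20 (SE 0.05) for *Dsc2* and 0.17 (SE 0.04) for *Dsg2*. In this smaller set of 4 against 4 libraries, 1.89% of genes had null libraries all higher.

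**Figure D1:**
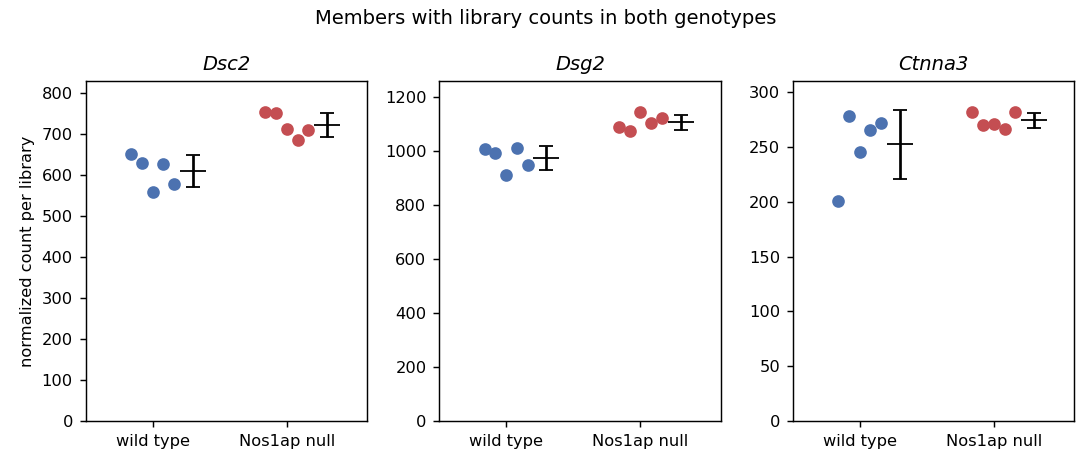
Normalized count per library (vertical axes, starting at 0) of *Dsc2*, *Dsg2* and *Ctnna3* in wild-type (blue) and *Nos1ap* null hearts (red). Each point is a library, and bars to the right give mean ± SD of 5 libraries. The groups do not overlap for *Dsc2* and *Dsg2* and overlap for *Ctnna3*.

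The count of *Dsc2* relative to that of *Dsg2* in the same library does not depend on the size factors. It was 64.7%, 63.5%, 61.3%, 62.0% and 61.1% in wild-type libraries (62.5% ± 1.53, SD, n = 5). In null libraries it was 69.3%, 70.0%, 62.3%, 62.1% and 63.3% (65.4% ± 3.92, SD, n = 5). The ranges overlapped, with 2 null libraries above all others and the other 3 within the wild-type range. Within genotypes, the 2 cadherins had a Pearson r of 0.56 over 10 libraries after the group means were taken out (exact permutation P = 0.167, adjusted 0.502 over 3 pairs) and a Spearman rho of 0.39 (exact permutation P = 0.321, adjusted 0.963). Without the 2 libraries farthest from the median of *Dsc2*, r was 0.23. A shared movement of *Dsc2* and *Dsg2* between hearts of one genotype was therefore not detectable with these libraries.

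The members of the desmosomal plaque showed hardly any difference between group means. *Dsp* (desmoplakin, ENSMUSG00000054889, chromosome 13, 38151294 to 38198577, plus strand) links the plaque to intermediate filaments and had a mean of 5958 in wild-type and 5989 in null hearts (log2 ratio of means 0.01). *Jup* (plakoglobin, ENSMUSG00000001552, chromosome 11, 100368958 to 100397763, minus strand), which binds the tails of both cadherin classes, had 2282 and 2245 (−0.02). *Pkp2* (plakophilin 2, ENSMUSG00000041957, chromosome 16, 16213318 to 16272712, plus strand), the main plakophilin of cardiomyocytes, had 2145 and 2146. The *Pkp2* ratio was nearest to 1 of the 10 members, with a null mean of 100.1% of wild type. *Pkp4* (plakophilin 4, or p0071, ENSMUSG00000026991, chromosome 2, 59160850 to 59355208, plus strand), a relative found at both desmosomes and adherens junctions, had 2330 and 2320 (−0.01). Its null libraries had 2337, 2284, 2307, 2324 and 2349 normalized counts (SD 25.7, n = 5). The distance between the means of *Pkp4* was smaller than the SD of its null libraries.

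Among the adherens junction members, *Cdh2* (N-cadherin, ENSMUSG00000024304, chromosome 18, 16588877 to 16809246, minus strand), the classical cadherin of the disc, had a mean of 5793 in wild type and 6229 in null (log2 ratio of means 0.10). *Ctnna1* (αE-catenin, ENSMUSG00000037815, chromosome 18, 35118859 to 35254779, plus strand), which connects the cadherin complex with actin, had 5154 and 5374 (0.06). For neither gene is the spread between libraries known. *Ctnna3* (αT-catenin, ENSMUSG00000060843, chromosome 10, 63430098 to 65003667, plus strand) is an α-catenin largely of heart and testis that also binds plakophilin 2. Wild-type libraries had 201, 279, 245, 265 and 272 (252 ± 31.4, SD, n = 5). Null libraries had 282, 270, 271, 266 and 282 (274 ± 7.13, SD, n = 5). The lowest value was that of wild-type library 1, and the ranges overlapped, with 2 wild-type libraries above 3 of the null libraries. The fitted log2 difference was 0.13 (SE 0.08), 0.05 (SE 0.06) without wild-type library 1, and 0.12 to 0.17 without any other single library. Without wild-type library 3 and null library 2 it was 0.13 (SE 0.09). Within genotypes, *Ctnna3* had a Pearson r of −0.25 with *Dsc2* (exact permutation P = 0.682, adjusted 0.801) and −0.15 with *Dsg2* (P = 0.801, exact permutation, adjusted 0.801). The Spearman rho values of *Ctnna3* were −0.02 with *Dsc2* (exact permutation P = 0.976, adjusted 0.976) and 0.13 with *Dsg2* (exact permutation P = 0.780, adjusted 0.976). Without the 2 libraries farthest from the median of the cadherin of the pair, not of *Ctnna3*, r was −0.53 and −0.38. Without wild-type library 1 it was 0.62 and 0.52, so that the sign rests on that library.

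*Tjp1* (zonula occludens 1, ENSMUSG00000030516, chromosome 7, 65296165 to 65527781, minus strand) is a scaffold of tight junctions that in cardiomyocytes lies at the disc and binds connexin 43. Its mean was 2068 in wild type and 2225 in null (log2 ratio of means 0.11), with no known spread between libraries.

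By group means, 8 members were higher and 2 lower in null, and the median log2 ratio of means was 0.08, against −0.00093 for the 13299 protein-coding genes that averaged 10 or more, of which 49.5% were higher in null. Among the 5123 more abundant ones, at 500 counts or above, 54.4% were higher in null. Members other than *Dsc2*, *Dsg2* and *Ctnna3* were within 0.11 of 0 on this log2 scale. The absolute log2 ratio of *Dsc2* was exceeded by 32 of these 5123 genes and that of *Dsg2* by 51, *Ctnna3* being below a mean of 500. For *Tjp1* and *Cdh2* the numbers were 227 and 232. *Ctnna1* was exceeded by 1062 genes, and *Jup*, *Dsp*, *Pkp4* and *Pkp2* by 3157 to 5049. The members were chosen with these ratios in view, and nothing is read from their places among the other genes. In the limma fit over all genes with library counts, 0.0284% passed an FDR of 1% with an absolute log2 fold change over 1 (3 of 10566), and 0.0284% passed an FDR of 5%. Of the 3 members with library counts, 0 passed either rule. At an unadjusted p under 0.05, 3.84% of all genes passed, 1.94% being higher in null, and 2 of the 3 members (*Dsc2* and *Dsg2*) were among the latter. The rule used this contrast, and nothing is read from these counts. In simulated data of this size, 49% of 200 genes changed by a log2 fold change of 0.25 were called at an FDR of 5%, and 85.5% of those changed by 0.5. Unchanged genes called in these runs were 7 and 8. The simulation set 1 spread for all libraries and had none that stood apart, unlike wild-type library 3 and null library 2. It also held 200 changed genes in each run, and the FDR threshold loosens as more genes are changed. The shares called may therefore be too high for these hearts.

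**Figure D2:**
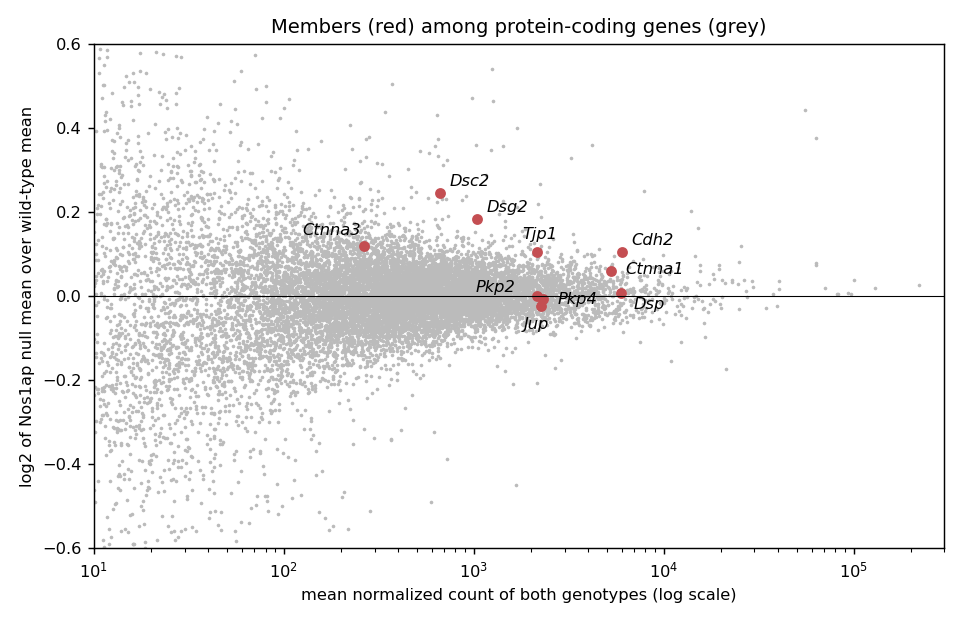
Mean normalized count of both genotypes (horizontal, log scale) against the log2 ratio of the null to the wild-type mean (vertical), for the members (red, labelled) and protein-coding genes at 10 or above (grey). Grey points beyond 0.6 in either direction are outside the axis. The log2 ratio is 0.25 for *Dsc2* and 0.18 for *Dsg2*, and *Pkp2*, *Pkp4*, *Dsp* and *Jup* are near 0. The members were chosen with these ratios in view, and nothing is read from their places among the grey points.

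*Dsc2*, *Dsg2*, *Cdh2* and *Ctnna1* are on chromosome 18, and all 4 had a higher mean in null. Of 353 protein-coding genes on that chromosome 57.2% were higher in null, with a median log2 ratio of means of 0.01. Several of the nearest protein-coding genes had few reads in these hearts. Upstream in coordinates from *Dsc2* lie *Dsc3*, *Cdh2* and *Chst9*. *Dsc3*, a desmocollin of stratified epithelia, was at 11.6 ± 4.72 in wild-type and 13.9 ± 6.63 in null hearts (SD, n = 5 each), a difference below the spread between libraries. *Chst9* had a mean of 0.194 and 0.416. Between *Dsc2* and *Dsg2* lie *Dsc1* and epidermal desmogleins. *Dsg1c* and *Dsg1a* had means under 1 in both groups, and *Dsc1*, *Dsg1b*, *Dsg3* and *Dsg4* were not analysed here. On the far side of *Dsg2*, *Ttr* had 7.25 ± 2.59 and 5.61 ± 2.94 (SD, n = 5 each). *B4galt6*, a lactosylceramide synthase, had means of 1134 and 1154 (log2 ratio of means 0.03). *Trappc8*, a subunit of a vesicle tethering complex, was at 500 ± 54.1 in wild-type and 540 ± 14.2 in null hearts (SD, n = 5 each). The 5 null libraries of *Trappc8* (523 to 556) were within the range of the wild-type libraries (414 to 563), and its log2 ratio of means was 0.11. Whether neighbouring genes differ together between genotypes was not tested.

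Levels were compared between members after division by the length of the union of annotated exons (normalized count per kb). In wild type, *Ctnna1* was highest with 802 per kb, followed by *Cdh2* with 718 and *Dsp* with 617. *Pkp4* (408), *Pkp2* (400) and *Jup* (354) had similar levels, and *Tjp1* had 265. The desmosomal cadherins were lower, with 118 ± 5.32 per kb for *Dsg2* and 115 ± 7.42 for *Dsc2* (SD, n = 5), which did not differ beyond their spread. In null they were 134 ± 3.37 and 137 ± 5.61, again within their spread. *Ctnna3* was lowest with 34.9 ± 4.35 per kb in wild type and 37.96 ± 0.986 in null. The order of *Dsp*, *Pkp4*, *Pkp2* and *Jup* depends on the length used, since with the longest transcript *Pkp2* and *Jup* came before *Dsp* and *Pkp4*, while the other 6 kept their positions. With that length *Dsg2* was 1.28-fold above *Dsc2* in wild type, against 1.02-fold with all exons.

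**Figure D3:**
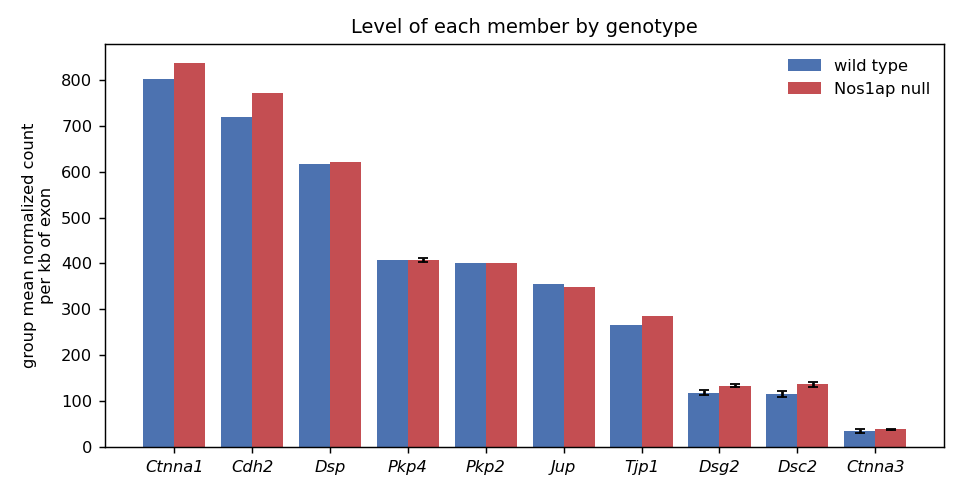
Group mean normalized count per kb of exon (vertical, starting at 0) of the 10 members in wild-type (blue) and *Nos1ap* null hearts (red), ordered by the wild-type level. Error bars are SD over 5 libraries, drawn where library counts are known. *Ctnna1* is highest with 802 per kb in wild type and *Ctnna3* lowest with 34.9.

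Several pairs of junction genes differed widely in level, unlike *Dsg2* and *Dsc2*. *Ctnna1* was 23.0-fold above *Ctnna3* per kb in wild type and 22.0-fold in null, or 20.1-fold and 19.3-fold with the longest transcript. *Dsp* was 5.24-fold above *Dsg2* and 5.34-fold above *Dsc2* per kb in wild type, and 4.64-fold and 4.53-fold in null. β-catenin (*Ctnnb1*), the armadillo partner of N-cadherin and a signalling protein, was 5.05-fold above its relative *Jup* per kb in wild type and 5.17-fold in null, or 3.61-fold and 3.69-fold with the longest transcript. *Dsc2* was 53.6-fold above *Dsc3* per kb in wild type and 53.3-fold in null, or 60.3-fold and 59.95-fold with the longest transcript. *Pkp2* was 260-fold above *Pkp1*, a plakophilin of the epidermis, in wild type and 267-fold in null, or 442-fold and 454-fold with the longest transcript, *Pkp1* being at 7.74 and 7.52 normalized counts, under the minimum of 10 used elsewhere. The order within each of these pairs was the same in both genotypes.

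The library counts of a gene sum over its transcription starts, and these can differ in kind. *Ctnna3* has 3 starts in the RefSeq promoter table (GRCm38.p6), which matched 5 of 10 members. The first and the second are shown because they differ in composition: 300 bases each, from 250 before to 50 after the start, on the plus strand of chromosome 10, with CG dinucleotides in capitals.
Ctnna3 start 1, chr10:63429848-63430147: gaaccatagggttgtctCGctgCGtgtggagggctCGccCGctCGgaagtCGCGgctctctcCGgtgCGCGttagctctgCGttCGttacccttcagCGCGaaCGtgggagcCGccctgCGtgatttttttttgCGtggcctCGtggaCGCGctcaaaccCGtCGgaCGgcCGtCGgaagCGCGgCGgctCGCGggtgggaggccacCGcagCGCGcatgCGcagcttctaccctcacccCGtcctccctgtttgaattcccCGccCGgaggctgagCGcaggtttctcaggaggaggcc
Ctnna3 start 2, chr10:63457261-63457560: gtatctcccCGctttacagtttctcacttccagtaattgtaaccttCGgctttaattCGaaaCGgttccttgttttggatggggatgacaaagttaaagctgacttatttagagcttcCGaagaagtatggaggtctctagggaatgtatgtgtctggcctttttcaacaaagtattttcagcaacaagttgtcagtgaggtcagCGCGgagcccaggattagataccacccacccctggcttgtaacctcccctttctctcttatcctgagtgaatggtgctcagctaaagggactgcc
The first holds 39 CG dinucleotides at a GC content of 67.0%, and the second 7 at 46.0%, against a median of 7 and 52.7% over 32851 promoters. The first starts of *Dsp* (27 CG dinucleotides), *Tjp1* (31), *Pkp4* (27) and *Jup* (14) were also above this median. The table of means does not separate the starts, and how much each contributed is not known.

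The other genes of these junctions were taken from lists of 58 genes that exclude the members. Of the 58, 48 had a mean of at least 10, of which 30 were higher and 18 lower in null, with a median log2 ratio of means of 0.01 (range −1.08 to 0.27) against 0.08 for the members (−0.02 to 0.25). The members were chosen with this contrast in view, so that nothing is read from the distance between the medians. Regardless of sign, 5 of the 48 had a larger log2 ratio than *Dsc2* and 8 a larger one than *Dsg2*. These 8 genes, among them *Ctnna2* (−1.08), *Ctnnd2* (−0.54), *Cdh4* (−0.26) and *Cgn* (0.27), all averaged between 12.8 and 146 normalized counts. They were chosen after their values were seen. Wild-type library 3 had 267.7 for *Ctnna2* (other wild-type libraries 31.3 to 52.3) and 135.4 for *Ctnnd2* (others 50.6 to 56.9). For *Cdh4* it had 103.8 (others 61.0 to 71.2). The ratios of these genes, and the range end of −1.08, thus rest largely on that library. Library counts were known for 24 of the 48. In the limma fit 0 of these 24 passed an FDR of 1% with a log2 fold change over 1, and 0 passed an FDR of 5% or an unadjusted p under 0.05, the lowest adjusted p being 0.998. The voom form of limma also gave 0. Without wild-type library 3 and null library 2, 1 of the 24 passed an unadjusted p under 0.05 and 0 passed an FDR of 5%.

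Of 4 other desmosomal genes above 10 counts, 2 were higher and 2 lower in null, with a median of −0.02. *Perp*, a tetraspan protein of desmosomes, had means of 905 and 870. *Ppl* (periplakin), a plakin of epithelia, was at 108 ± 13.1 and 109 ± 16.5 (SD, n = 5 each). Of 14 cadherin and catenin genes, 9 were higher and 5 lower, with a median of 0.01. *Ctnnb1* had means of 9299 and 9361, and *Ctnnd1* (p120-catenin), which stabilises cadherins at the membrane, had 4473 and 4662. The log2 ratios of means of *Ctnnb1* and *Ctnnd1* were 0.01 and 0.06, with no known spread between libraries. Of 14 tight junction genes, 8 were higher and 6 lower, with a median of 0.02. *Cgnl1* (paracingulin) had 3069 and 3170. *Cxadr*, the coxsackievirus and adenovirus receptor, which lies at the disc, had 1297 and 1366. Of 16 genes that anchor filaments or channels at the disc, 11 were higher and 5 lower, with a median of 0.02. *Actn2* (α-actinin) had 17207 and 17563, and *Des* (desmin), the intermediate filament bound by desmoplakin, had 8633 and 8593.

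**Figure D4:**
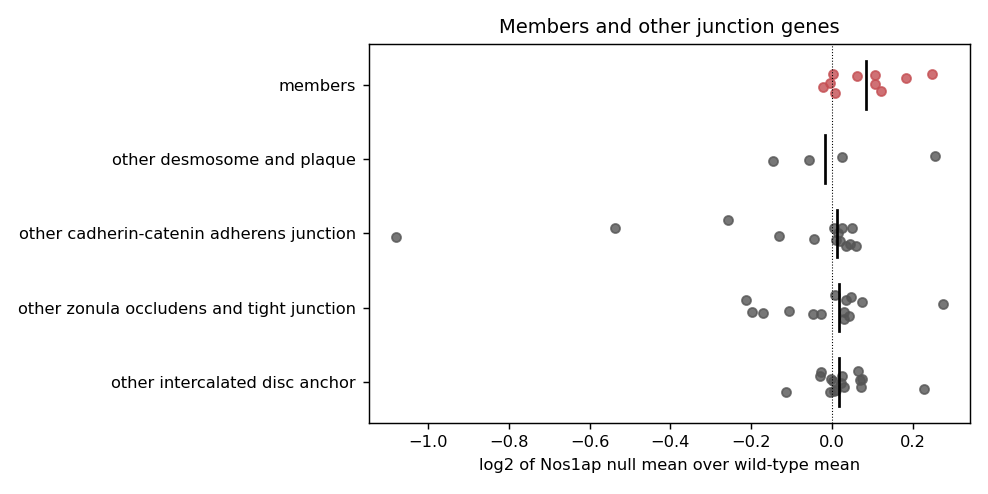
Log2 ratio of the null to the wild-type mean (horizontal) of the members (red) and of other junction genes with a mean of at least 10 (dark grey) in 4 lists (vertical; scatter within a row is for legibility). Each point is a gene and the black line is the median of the row, 0.08 for the members and between −0.02 and 0.02 for the other lists.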

How the data were processed

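Hearts of 5 wild-type and 5 *Nos1ap* null male embryos at E13.5 were grouped by their titles. The authors checked reads with FastQC 0.11.5, trimmed them with Trimmomatic 0.36, aligned them with STAR within RSEM 1.2.31 to GENCODE M10 transcripts (GRCm38), counted with respect to strand, and compared gene counts with DESeq 1.24.0, and genes whose counts summed to 1 or less were left out. The signal values deposited are normalized counts that the authors averaged over the libraries of each group. The table also holds their fold changes, log2 fold changes, p-values and adjusted p-values, which were not used.

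Size factors were read from the smallest steps between group means. For each mean, whole counts giving it to the last of 15 digits were searched in a reduced lattice (sympy 1.14.0, numba 0.67.0). Below a mean of 200 a set was taken if unique. Above 200, or where it was not unique, the most even set was used if no more than 0.01 further sets of like evenness were expected. Below 1000, 98.5% of means of either group were settled, above it 19.7% in wild type and 23.6% in null. On simulated data, 3933 of 3943 wild-type and 3920 of 3938 null sets below 1000 came out right and 0 wrong. Just above 1000 it was 926 and 967 of 1500, with 0 wrong. The simulated libraries shared 1 spread and none stood apart. Errors where a library is uneven, as wild-type library 3 was for some genes, were therefore not measured. The design called for library counts of all members, but the file settled them for 3.

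limma 3.58.1 (R 4.3.3; trend, robust) was run on normalized counts (log2, pseudocount 1), over the 10566 protein-coding genes with counts and a mean of at least 10, with Benjamini-Hochberg adjustment, and tested on simulated data. Log2 ratios of means have no pseudocount. Correlations within genotypes used exact two-sided permutation over 14400 arrangements. Whether the 5 hearts of a group came from separate litters is not stated, so errors measure the spread between these samples only. Coordinates and exon lengths are from GENCODE M21 (GRCm38), matched by gene identifier.

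Members and lists were chosen with earlier results of these data known. Named genes are the members, the 2 most abundant genes of each other list, genes of those lists past an unadjusted p of 0.05 (0 genes), the 3 protein-coding neighbours on either side of *Dsc2* and *Dsg2*, and *Nos1ap*. *Dsc3*, *Pkp1*, the markers named singly, the library pairs set apart and the ratios between levels were chosen after values were seen. Alternatives changed the pseudocount, the minimum mean, the scaling, the form of limma, the exon length and the libraries used. Of these, the limit of 1000 on both means and the removal of wild-type library 3 with null library 2 were added after seeing the data.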

Additional observations from a re-analysis of the deposited data

Results flagged for a closer look

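Of 59 groups of 5 libraries of members and other junction genes, 6 had a library set apart from the rest by a gap above 0.71 of the range of the group, the 95% value of Dixon's test. Chance alone sets apart about 1 in 20 groups. None of the 6 was a group of a member. Wild-type library 3 was highest for *Ctnna2* (267.7 normalized counts), *Ctnnd2* (135.4) and *Cdh4* (103.8), 3 cadherin or catenin genes with a known role in neurons. The wild-type means of these genes were 88.0, 70.0 and 72.7. Null library 2 was lowest for *Nectin3* (450.5) and *Jam2* (82.5), and null library 5 highest for *Xirp2* (29.4). These genes were chosen after their values were seen.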

How the results depend on the processing

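Of the 18 alternatives of the limma fit, all left 0 members and 0 other junction genes called at an FDR of 1% with a log2 fold change over 1, and 2 or 3 genes of the whole table. The log2 difference was between 0.20 and 0.27 for *Dsc2*, between 0.16 and 0.20 for *Dsg2* and between 0.05 and 0.17 for *Ctnna3*. *Dsg2* is not in the fit limited to means under 1000. Rescaling shifted log2 ratios by 0.0015, which turned that of *Pkp2* from 0.0010 to −0.0005. With the longest transcript in place of all exons, the median level per kb over the 10 members in wild type was 563, against 377. With single libraries left out, the Pearson r within genotypes was between 0.20 and 0.72 for *Dsc2* and *Dsg2*, between −0.41 and 0.62 for *Dsc2* and *Ctnna3*, and between −0.31 and 0.52 for *Dsg2* and *Ctnna3*. It turned positive for the latter pairs without wild-type library 1, and 0 of 3 pairs passed a P of 0.05 in any setting. No paired analysis was possible because the recovered libraries carry no replicate number of the labels. Above a mean of 1000 the printed digits limit how many library counts can be settled, so that 6 members have no error in either group and *Pkp4* has none in wild type.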
